A study of Canis lupus familiaris with 9 samples.

Results

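Genes of the actin cytoskeleton and of podosomes were followed across 3 states of canine monocyte-derived macrophages. The set was given as a list of 49 gene symbols, and 48 of them were among the gene symbols of a table of 12696 protein coding genes. MYO1G, a class I myosin of blood cells, was not analysed here. Mononuclear cells were separated from beagle blood on a density gradient, and the monocytes, kept by their adherence to plastic without a further sort, were grown for 7 days with 10 ng/mL of recombinant human M-CSF, the growth factor of macrophages. For a further 24 h the cells of the M2 group (3 samples) received 20 ng/mL of IL-4 and 20 ng/mL of IL-13, those of the M1 group (3 samples) received 20 ng/mL of IFN-γ, and those of the M0 group (3 samples) received no added cytokine. All groups shared the M-CSF, and the donors were healthy spayed female beagles of about 2 years. Poly-A RNA was sequenced from these 9 samples, which came from cultures of 3 unrelated dogs.

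Macrophages adhere and move with podosomes, small contacts built around a core of branched actin filaments and ringed by adhesion proteins such as talin, vinculin and paxillin. The core is nucleated by the Arp2/3 complex under the control of the Wiskott-Aldrich syndrome protein, and podosomes are the sites where macrophages degrade matrix. Formins and Ena/VASP proteins lengthen filaments, cofilin and gelsolin cut them, and fascin, plastin, alpha-actinin and filamin bundle or crosslink them. Tropomyosins and caldesmon bind along the sides of filaments, myosins pull on them, and the ezrin, radixin and moesin proteins tie them to the membrane.

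Each gene has one value per group, a mean of normalized counts made by the authors, and log2 ratios were computed here from these means. Values per sample were not used, so no difference below could be set against the spread between dogs or cultures, no test was made, and no error is given. The means were not scaled to gene length, so levels are compared between groups and not between genes. The depth of each sample is unknown from these values. The means of all genes summed to 27312028 normalized counts in M2, 28039918 in M1 and 26728643 in M0, and the lowest mean listed was 1.07 in M2, 1.00 in M1 and 0.912 in M0. A gene counts here as higher or lower in a comparison when its means differed at least 2-fold, a log2 ratio of 1 in size, and the higher mean was at least 50. The 3 comparisons share groups and are not independent of each other. In such bulk samples fewer cells of a type and less RNA per cell cannot be told apart.

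Most of the actin genes had similar means in the 3 states, and a small set stood apart. CALD1, ACTN1 and WIPF1 had their highest means in M2, ACTR3 had its highest in M1, and FSCN1 and PLEK were above M0 in both treated states. MYL9 was below M0 in both, and MICAL1 was below M0 in M2. GSN was higher in M2 than in M1, with M0 between them. In M2 against M0, 4 of 47 members were higher, 2 were lower and 41 were not called, where 2.99% of 10787 genes were higher and 3.49% were lower. The members' shares were 8.51% and 4.26%. In M1 against M0, 3 of 46 members were higher, 1 was lower and 42 were not called, where 5.56% of 10790 genes were higher and 8.77% were lower. The members' shares there were 6.52% and 2.17%. In M2 against M1, 4 of 46 members were higher, 0 were lower and 42 were not called, where 7.0% of 10737 genes were higher and 5.72% were lower. The member nearest below that threshold was ACTR3, with a log2 ratio of -0.98.

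**Figure D1:**
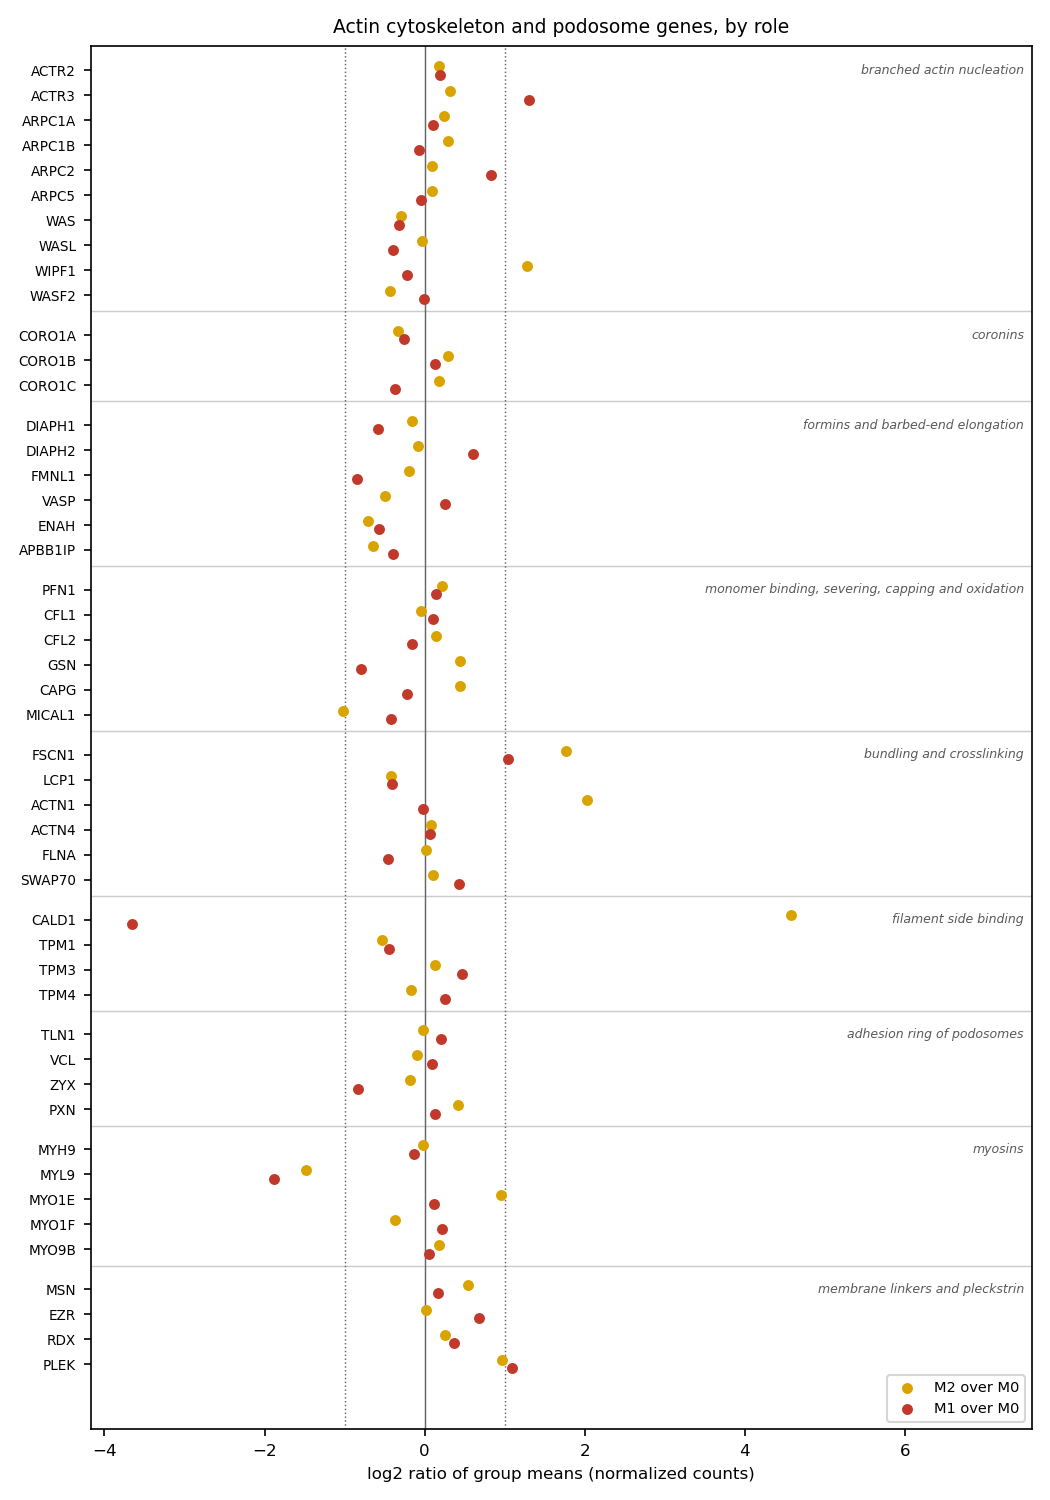
Log2 ratio of the group means of each actin gene (horizontal axis) for M2 over M0 (yellow) and M1 over M0 (red), 48 genes grouped by role from top to bottom, with dotted lines at a 2-fold difference. Most points lie between the dotted lines, and CALD1 lies far outside on both sides, at 4.58 in M2 and -3.66 in M1.

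As a group the members had medians close to 0. Their median log2 ratio was 0.10 in M2 against M0, 0.06 in M1 against M0 and 0.05 in M2 against M1, beside 0.02, 0.01 and -0.003 over all genes that reached the minimum. Members with a ratio above 0 numbered 27 of 47, 24 of 46 and 25 of 46, where 53.1%, 51.3% and 49.6% of all genes had one. The median size of the log2 ratio was 0.25 in M2 against M0 (0.20 over all genes), 0.25 in M1 against M0 (0.35 over all genes) and 0.36 in M2 against M1 (0.28 over all genes). Of the 47 members that reached 50 in any group, 19 had their highest mean in M2, 15 in M1 and 13 in M0. These are 40.4%, 31.9% and 27.7% of the members, where the shares over 10902 genes were 26.6%, 41.1% and 32.2%. For 29 members (61.7%) the highest mean was within 1.5-fold of the lowest, as for 61.8% of all genes. A span beyond 2-fold was found for 9 members (19.1%) and for 19.7% of all genes.

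**Figure D2:**
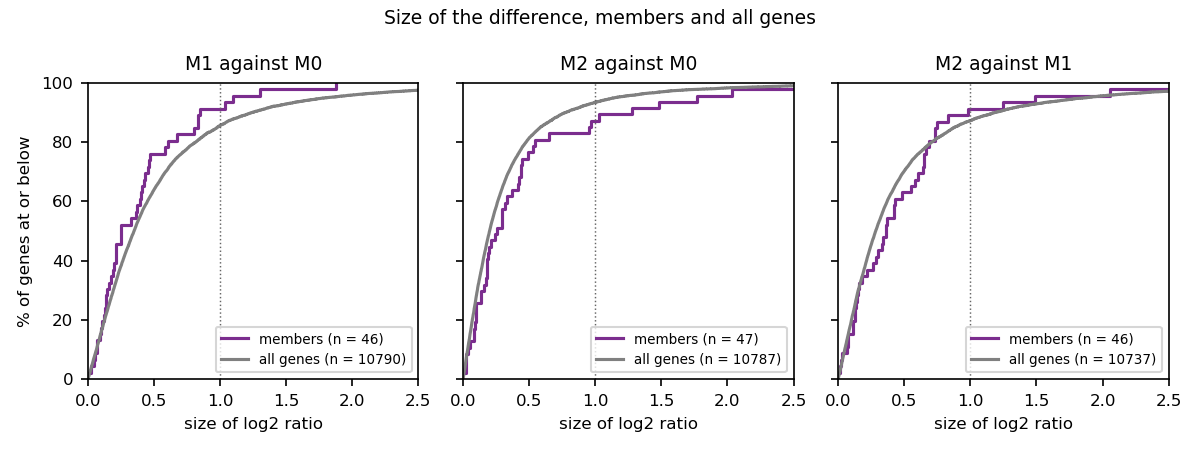
Cumulative share of genes (vertical axis, in percent) by the size of their log2 ratio (horizontal axis) in each comparison, for the members (purple) and all genes reaching a mean of 50 (grey); the dotted line marks 2-fold and the axis ends at 2.5, below the ratio of CALD1. In M2 against M0 the members' curve lies right of that of all genes over most of the axis, with medians of 0.25 and 0.20, and in M1 against M0 it lies left of it, with medians of 0.25 and 0.35.

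Counts of most members were high. In each group 41 of them had a mean of 1000 or more, where 36.2% of all genes did so in M2, 36.6% in M1 and 35.7% in M0. Together they held 2.16% of the table's sum in M2, 1.95% in M1 and 1.97% in M0. FLNA, which encodes filamin A, had the highest mean of the set in each group on this scale, which is not per gene length, with 64518 in M2, 46153 in M1 and 63643 in M0. At the other end ENAH, an Ena/VASP protein that lengthens filaments, had 21.9 in M2, 24.1 in M1 and 35.8 in M0, and it never reached the minimum of 50.

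The Arp2/3 complex and its activators made up the largest role group, with 10 members. Among the subunits, ACTR3, the actin-like subunit Arp3, had a mean of 15754 in M2, 31175 in M1 and 12651 in M0. It was 2.46-fold higher in M1 than in M0, a log2 ratio of 1.30, and its log2 ratio in M2 against M0 was 0.32. ARPC2, a subunit of the complex's structural core, had 11959 in M2, 19888 in M1 and 11183 in M0, a log2 ratio of 0.83 in M1 against M0 that stayed short of the threshold. The M1 mean was thus the highest for both genes. The other subunits among the members were close to level. ACTR2, the actin-like partner of ACTR3, had 13140 in M2, 13207 in M1 and 11604 in M0. ARPC5 had 12580 in M2, 11418 in M1 and 11778 in M0. The paralogs ARPC1A and ARPC1B, alternative forms of one subunit, had log2 ratios of 0.24 and 0.30 in M2 against M0, and 0.11 and -0.07 in M1 against M0. Outside the members, ARPC5L had a log2 ratio of 0.69 in M1 against M0. ARPC3, ARPC4 and ACTR3B had 0.07, -0.05 and -0.13 there.

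WIPF1 encodes WIP, the protein that binds the Wiskott-Aldrich syndrome protein and protects it from degradation. Its mean was 30168 in M2, 10727 in M1 and 12446 in M0, so that M2 stood 2.42-fold above M0 (log2 ratio 1.28) and 2.81-fold above M1 (1.49). WAS itself, the blood cell activator of Arp2/3, had 2247 in M2, 2200 in M1 and 2750 in M0, and WASL, its broadly expressed relative, had 536 in M2, 417 in M1 and 550 in M0. WASF2, the WAVE protein of lamellipodia, had 8052 in M2, 10823 in M1 and 10902 in M0. The M2 difference in this role group was thus in the partner, while the 3 activators lay within a log2 ratio of -0.44 to -0.04 in M2 against M0.

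The coronins, which bind filaments and turn over Arp2/3 branches, were not called in any comparison. CORO1A, the coronin of blood cells, had its highest mean in M0, with 13997 in M2, 14746 in M1 and 17575 in M0. CORO1B and CORO1C had log2 ratios of 0.30 and 0.18 in M2 against M0. CORO1C was lowest in M1, with 3273 in M2, 2240 in M1 and 2890 in M0.

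The formins, which nucleate and lengthen unbranched filaments, differed among themselves in M1. DIAPH2 had 1739 in M2, 2797 in M1 and 1839 in M0, a log2 ratio of 0.61 in M1 against M0. Its relative DIAPH1 had 6417 in M2, 4781 in M1 and 7161 in M0, a ratio of -0.58. FMNL1, the formin of leukocytes, had 9074 in M2, 5774 in M1 and 10382 in M0, a ratio of -0.85 and the member nearest below the threshold in that comparison. None of the 3 reached 2-fold, and DIAPH2 was the one with its highest mean in M1. VASP, which shields growing filament ends from capping, had 6145 in M2, 10300 in M1 and 8658 in M0, a log2 ratio of -0.75 in M2 against M1. APBB1IP, the RIAM adaptor that joins the GTPase Rap1 to talin and to Ena/VASP proteins, was highest in M0, with 2659 in M2, 3186 in M1 and 4175 in M0.

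Among the members that bind monomers, cut, cap or oxidize filaments, the profilin and cofilin genes were close to level. PFN1, which encodes profilin and feeds monomers to formins, had 17531 in M2, 16704 in M1 and 15106 in M0. CFL1, the cofilin of most cells, had 26974 in M2, 29951 in M1 and 27907 in M0. CFL2, the cofilin of muscle, had 219 in M2, 178 in M1 and 199 in M0. GSN, which encodes gelsolin, cuts and caps filaments in response to calcium. Its mean was 8693 in M2, 3670 in M1 and 6393 in M0, which put M2 2.37-fold above M1 (log2 ratio 1.24) with ratios of 0.44 in M2 against M0 and -0.80 in M1 against M0. CAPG, its relative that caps without cutting, had 40985 in M2, 26069 in M1 and 30272 in M0, the same order of M2 over M0 over M1 within a smaller range. MICAL1, an enzyme that oxidizes actin and so takes filaments apart, had 2566 in M2, 3902 in M1 and 5223 in M0. Its mean in M2 was lower than in M0, with a log2 ratio of -1.03 just past the threshold.

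Of the 6 bundling and crosslinking genes, ACTN1 and FSCN1 were higher in M2 than in M0, and ACTN1 was also higher in M2 than in M1. ACTN1, one of the non-muscle alpha-actinins that crosslink filaments at podosomes and other adhesions, had 6301 in M2, 1519 in M1 and 1540 in M0. M2 stood 4.09-fold above M0 (log2 ratio 2.03) and 4.15-fold above M1 (2.05), and M1 and M0 were nearly equal. ACTN4, the other non-muscle alpha-actinin, had 8806 in M2, 8692 in M1 and 8306 in M0, a span of 1.06-fold. The alpha-actinins thus parted in M2, where ACTN1 was higher and ACTN4 was level. By size of log2 ratio in M2 against M0, ACTN1 ranked 172 of the 10787 genes.

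FSCN1 encodes fascin, which packs filaments into parallel bundles in filopodia and marks mature dendritic cells. Its means were 11399 in M2, 6853 in M1 and 3338 in M0, so both treated states were above M0, by 3.42-fold in M2 (log2 ratio 1.77) and 2.05-fold in M1 (1.04). The M1 ratio lay just inside the threshold and was 0.97 when the groups were scaled to equal table sums. LCP1, the plastin of blood cells, ran the other way at a small size, with 22999 in M2, 23196 in M1 and 30779 in M0. SWAP70, which binds filaments and Rac in leukocytes, had 2582 in M2, 3252 in M1 and 2410 in M0. FLNA was nearly equal in M2 and M0 and had a log2 ratio of -0.46 in M1 against M0.

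**Figure D3:**
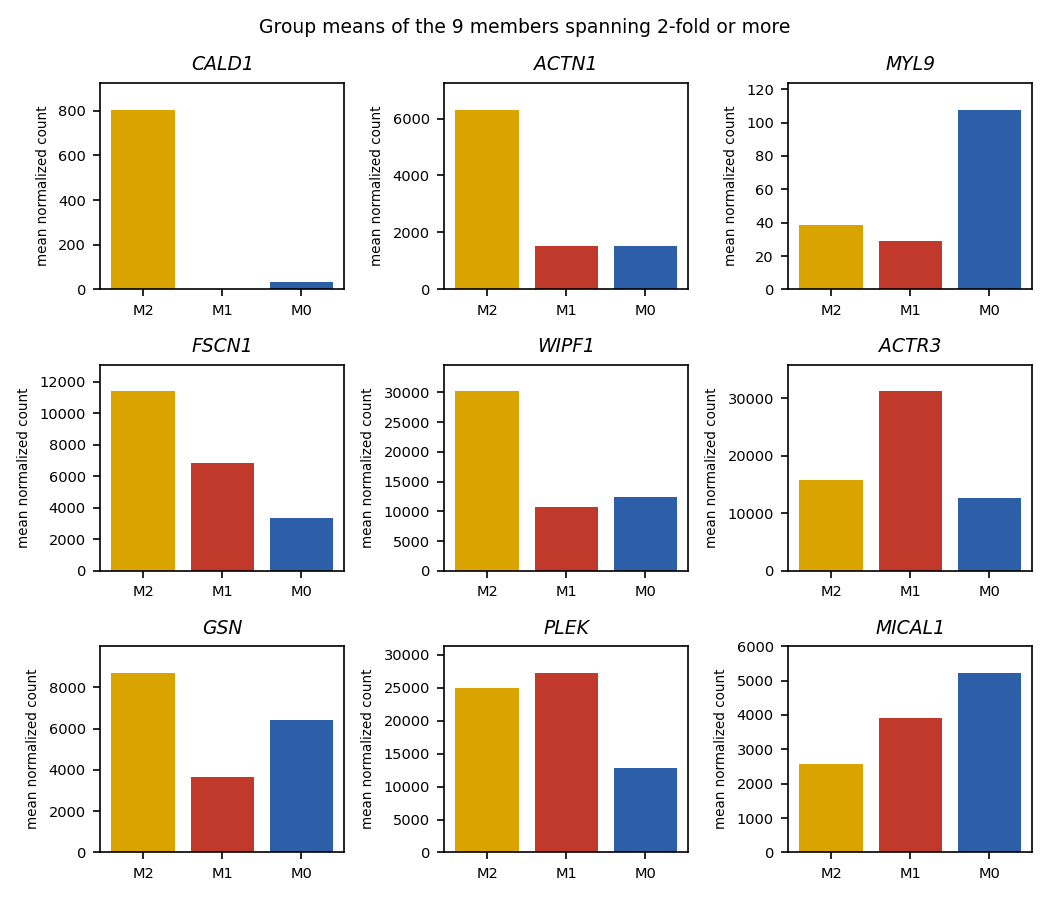
Mean normalized count (vertical axis, from 0, a separate scale in each panel) in M2, M1 and M0 for the 9 members whose means spanned 2-fold or more; each bar is the authors' group mean, with no error available. CALD1, ACTN1 and WIPF1 stand out in M2 alone, ACTR3 in M1 alone, FSCN1 and PLEK in both treated states, and MYL9 and MICAL1 are highest in M0.

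CALD1 had the widest span of the members. It encodes caldesmon, a protein that binds along filaments with tropomyosin and restrains myosin, and that limits Arp2/3 activity at podosomes. Its mean was 804 in M2, 2.67 in M1 and 33.7 in M0. M2 was 23.8-fold above M0, a log2 ratio of 4.58 that ranked 13 among 10787 genes by size, and 301-fold above M1, a log2 ratio of 8.24 that ranked 2 among 10737. The M1 mean lies close to the lowest value in the table, so the size of the second ratio depends on how a low mean is treated. With 10 normalized counts added to each mean the log2 ratios were 4.22 in M2 against M0 and 6.01 in M2 against M1. CALD1 did not reach the minimum of 50 in M1 or M0, so it was not counted in M1 against M0, where its log2 ratio was -3.66 and, with 10 added, -1.79.

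The tropomyosins among the members, proteins with which caldesmon binds filaments, did not follow it. TPM1 had 688 in M2, 725 in M1 and 990 in M0. TPM3 had 4126 in M2, 5217 in M1 and 3760 in M0, and TPM4 had 10319 in M2, 13814 in M1 and 11614 in M0. Their log2 ratios in M2 against M0 were -0.53, 0.13 and -0.17, and none was called in any comparison.

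Caldesmon and the light chain gene MYL9 are also made by smooth muscle, stromal cells and platelets, which an adherent blood culture might hold, so markers of such cells were read beside them. Of 11 fibroblast markers 2 were in the table, with a summed mean of 363 in M2, 613 in M1 and 198 in M0. PDGFRB, the higher of them in M1, had 159 in M2, 466 in M1 and 125 in M0, and THY1 had 204 in M2, 148 in M1 and 72.2 in M0. Of 6 smooth muscle markers 3 were in the table. MYH11, smooth muscle myosin, had 1790 in M2, 1415 in M1 and 2133 in M0, while CNN1 had 4.11 in M2, 1.66 in M1 and 10.2 in M0 and TAGLN had 36.7 in M2, 65.9 in M1 and 42.0 in M0. Of 8 platelet markers 2 were in the table, with sums of 80.9 in M2, 105 in M1 and 84.3 in M0, and TUBB1, a tubulin of platelets, led them with 45.7 in M2, 62.4 in M1 and 44.1 in M0. CALD1 and THY1 were highest in M2, and MYL9, MYH11 and CNN1 were highest in M0. PDGFRB, TAGLN and the platelet markers were highest in M1. The means of CNN1, TAGLN and the platelet markers were low.

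Of 7 endothelial markers 4 were in the table, and their sum was 466 in M2, 148 in M1 and 1187 in M0. Among them TEK, the angiopoietin receptor that some monocytes also carry, had 221 in M2, 43.9 in M1 and 947 in M0. The M0 sum was thus mostly TEK. PECAM1 and VWF were also highest in M0, while CLDN5 was highest in M2, with 110 in M2, 55.3 in M1 and 58.4 in M0. Of 9 T and NK cell markers 7 were in the table, with sums of 1376 in M2, 5353 in M1 and 1654 in M0. CD2 was the highest, with 919 in M2, 5032 in M1 and 1253 in M0, so the M1 sum was mostly CD2. CD3D, CD3E, CD3G, CD5 and LCK were level or lower in M1 than in M0. Among these CD3E had 162 in M2, 88.8 in M1 and 92.8 in M0, and CD5 had 125 in M2, 95.5 in M1 and 174 in M0. CD3D, CD3E and CD3G were highest in M2, CD3D and CD3G at low means of 33.7 and 37.9 there. CD5 was highest in M0, and LCK was level across the groups. GZMB was highest in M1, at a low mean of 12.6. Of 6 B cell markers 5 were in the table, with sums of 12242 in M2, 9991 in M1 and 10682 in M0, with CD79A at 12039 in M2, 9856 in M1 and 10511 in M0. Of 8 neutrophil and mast cell markers 4 were in the table, with sums of 2385 in M2, 405 in M1 and 1096 in M0. MS4A2, a chain of the high-affinity IgE receptor, had 2240 in M2, 15.2 in M1 and 200.2 in M0, so the M2 sum was mostly MS4A2. CSF3R and S100A12 were highest in M0. CSF3R had 92.9 in M2, 376 in M1 and 664 in M0. S100A12 had 23.0 in M2, 10.2 in M1 and 230 in M0. MPO was highest in M2, at a low mean of 29.3. No marker in the table was listed at 0, and the markers absent from it, the collagens and most platelet genes included, were not analysed here. The part of other cells in the values of CALD1 and MYL9 was not tested. Of 12 macrophage markers 10 were in the table, with a sum of 368602 in M2, 316548 in M1 and 392562 in M0. CTSS, a lysosomal protease gene, led that list with 152086 in M2, 165263 in M1 and 114770 in M0. The lowest mean of the list was 3494, for AIF1 in M2. In M1 against M0, 3 macrophage markers (30.0%) were lower and 0 were higher, where 8.77% and 5.56% of all genes were. The lower ones were CSF1R, ITGAM and LYZ, with log2 ratios of -1.17, -1.33 and -1.95.

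None of the genes of the podosome's adhesion ring was called in any comparison, and TLN1 and VCL were close to level. TLN1, which encodes talin and ties integrins to actin, had 38057 in M2, 44276 in M1 and 38581 in M0. VCL, which encodes vinculin and strengthens that tie, had 725 in M2, 820 in M1 and 772 in M0. PXN, the adaptor paxillin, had 1663 in M2, 1365 in M1 and 1248 in M0, a log2 ratio of 0.41 in M2 against M0. ZYX encodes zyxin, a protein that gathers at filaments under tension. It had the widest span of these genes, with 4622 in M2, 2966 in M1 and 5268 in M0. Its log2 ratio in M1 against M0 was -0.83 and it was not called.

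Among the myosins, MYH9, the heavy chain of non-muscle myosin IIA, had 32698 in M2, 30222 in M1 and 33264 in M0, a span of 1.10-fold. MYL9, a regulatory light chain of smooth muscle and non-muscle myosin II, had 38.5 in M2, 29.3 in M1 and 108 in M0. It was lower than M0 in both treated states, with log2 ratios of -1.48 in M2 and -1.88 in M1, on low means, and it stayed under the minimum of 50 in M2 against M1. The class I myosins, which tie membrane to actin, were not called in any comparison. MYO1E had 10784 in M2, 6051 in M1 and 5561 in M0, a log2 ratio of 0.96 in M2 against M0. MYO1F, its relative in blood cells, had 8770 in M2, 13115 in M1 and 11304 in M0, a ratio of -0.37. MYO9B, a class IX myosin, had 17389 in M2, 15915 in M1 and 15329 in M0.

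Of the membrane linkers, MSN, which encodes moesin, the main member of its family in leukocytes, had 27266 in M2, 21081 in M1 and 18695 in M0. EZR, which encodes ezrin, had 4492 in M2, 7100 in M1 and 4449 in M0, a log2 ratio of 0.67 in M1 against M0. RDX, which encodes radixin, had 1711 in M2, 1851 in M1 and 1435 in M0. None of these was called, and the highest mean was in M2 for moesin and in M1 for ezrin and radixin. PLEK encodes pleckstrin, the main target of protein kinase C in platelets and leukocytes, which reorganizes actin at the membrane. It had 25025 in M2, 27266 in M1 and 12780 in M0. Both treated states were near 2-fold above M0, M1 inside the threshold at a log2 ratio of 1.09 and M2 just outside at 0.97, so the call does not separate them.

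Ratios between related genes were then compared across the groups, for 13 pairs chosen after their values were seen. Such a ratio does not change with the scaling of a group, and since gene length was not taken into account it can be read only across groups. ACTN1 stood at 0.716 of ACTN4 in M2, 0.175 in M1 and 0.185 in M0. WIPF1 stood at 13.4 times WAS in M2, 4.88 times in M1 and 4.53 times in M0. ACTR3 stood at 1.20 times ACTR2 in M2, 2.36 times in M1 and 1.09 times in M0, and ARPC2 at 0.951 of ARPC5 in M2, 1.74 times in M1 and 0.949 in M0. The first 2 ratios thus stood apart in M2 and the next 2 in M1, with the remaining states close to each other.

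DIAPH2 stood at 0.271 of DIAPH1 in M2, 0.59 in M1 and 0.257 in M0. MYO1F stood at 0.813 of MYO1E in M2, 2.17 times in M1 and 2.03 times in M0, so this ratio stood apart in M2. EZR stood at 0.165 of MSN in M2, 0.337 in M1 and 0.238 in M0. TPM3 stood at 6.0 times TPM1 in M2, 7.20 times in M1 and 3.80 times in M0. Other pairs stayed closer: ARPC1B stood at 13.5 times ARPC1A in M2, 11.5 times in M1 and 13.0 times in M0, and GSN at 0.212 of CAPG in M2, 0.141 in M1 and 0.211 in M0. How reads shared by near-identical genes were counted is not given in the sources used here, which bears on the tropomyosins and above all on the actins.

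**Figure D4:**
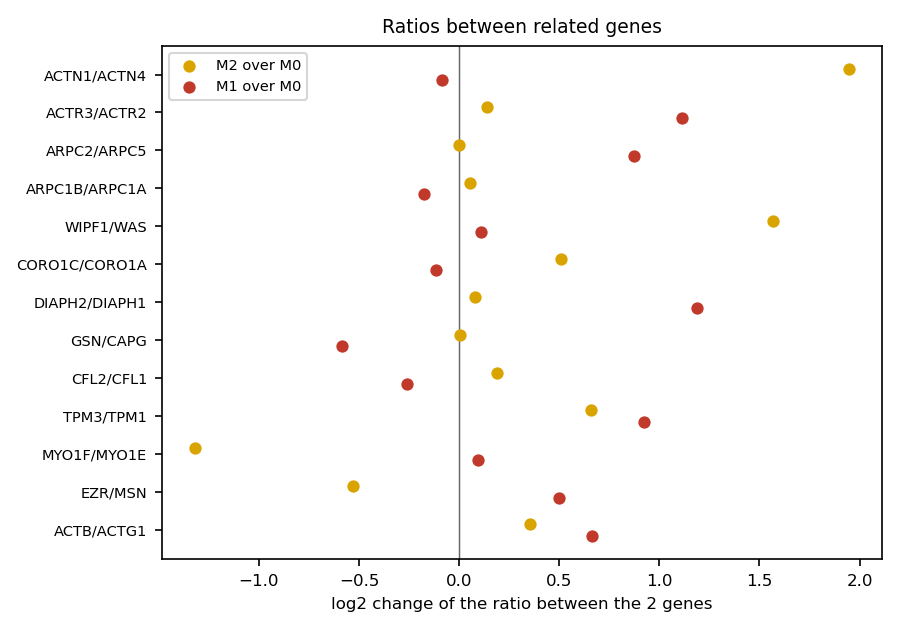
Log2 change of the ratio between 2 related genes (horizontal axis) in M2 over M0 (yellow) and M1 over M0 (red), for 13 pairs named on the vertical axis. The ratios ACTN1/ACTN4 and WIPF1/WAS were 3.86-fold and 2.97-fold above M0 in M2, while ACTR3/ACTR2 and DIAPH2/DIAPH1 were 2.17-fold and 2.28-fold above M0 in M1.

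A second list of 116 other genes of the actin pathway was read for context, of which 96 were in the table. In M2 against M0, 3 of 88 were higher, 6 were lower and 79 were not called, shares of 3.41% and 6.82% beside 2.99% and 3.49% over all genes. In M1 against M0, 3 of 89 were higher, 10 were lower and 76 were not called, shares of 3.37% and 11.2% beside 5.56% and 8.77% over all genes. In M2 against M1, 11 of 89 were higher, 7 were lower and 71 were not called, shares of 12.4% and 7.87% beside 7.0% and 5.72% over all genes. The medians of the list were -0.05, -0.06 and 0.06.

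Named here are genes with the largest log2 ratios of that list in each comparison. SH3PXD2A, which encodes Tks5, the scaffold that brings proteases to podosomes, had 4704 in M2, 938 in M1 and 4585 in M0, log2 ratios of -2.29 in M1 against M0 and 2.33 in M2 against M1. CTTN, which encodes cortactin, a stabilizer of Arp2/3 branches, had 1368 in M2, 3298 in M1 and 706 in M0, a ratio of 2.22 in M1 against M0. RHOB, a small GTPase of endosomes, had 1553 in M2, 1094 in M1 and 4580 in M0. In M1 the Tks5 and cortactin genes thus lay on opposite sides of M0, and RHOB was lower than M0 in both treated states.

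RHOH, a small GTPase of blood cells without enzyme activity, had 498 in M2, 382 in M1 and 114 in M0, a log2 ratio of 2.12 in M2 against M0. ADD3, an adducin that caps filaments at the membrane, had 1554 in M2, 233 in M1 and 491 in M0, a log2 ratio of 2.74 in M2 against M1. SCIN, which encodes scinderin, a relative of gelsolin, had 1739 in M2, 278 in M1 and 807 in M0, a log2 ratio of 2.65 in M2 against M1. ADD3 and SCIN were higher than M0 in M2 and lower than M0 in M1. GSN, CAPG and CALD1, among other members, had the same order of M2 over M0 over M1. GSN and CAPG were not called against M0. The actins themselves were not called, with ACTB at 46622 in M2, 65539 in M1 and 51331 in M0 and ACTG1 at 27393 in M2, 31082 in M1 and 38574 in M0.

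**Figure D5:**
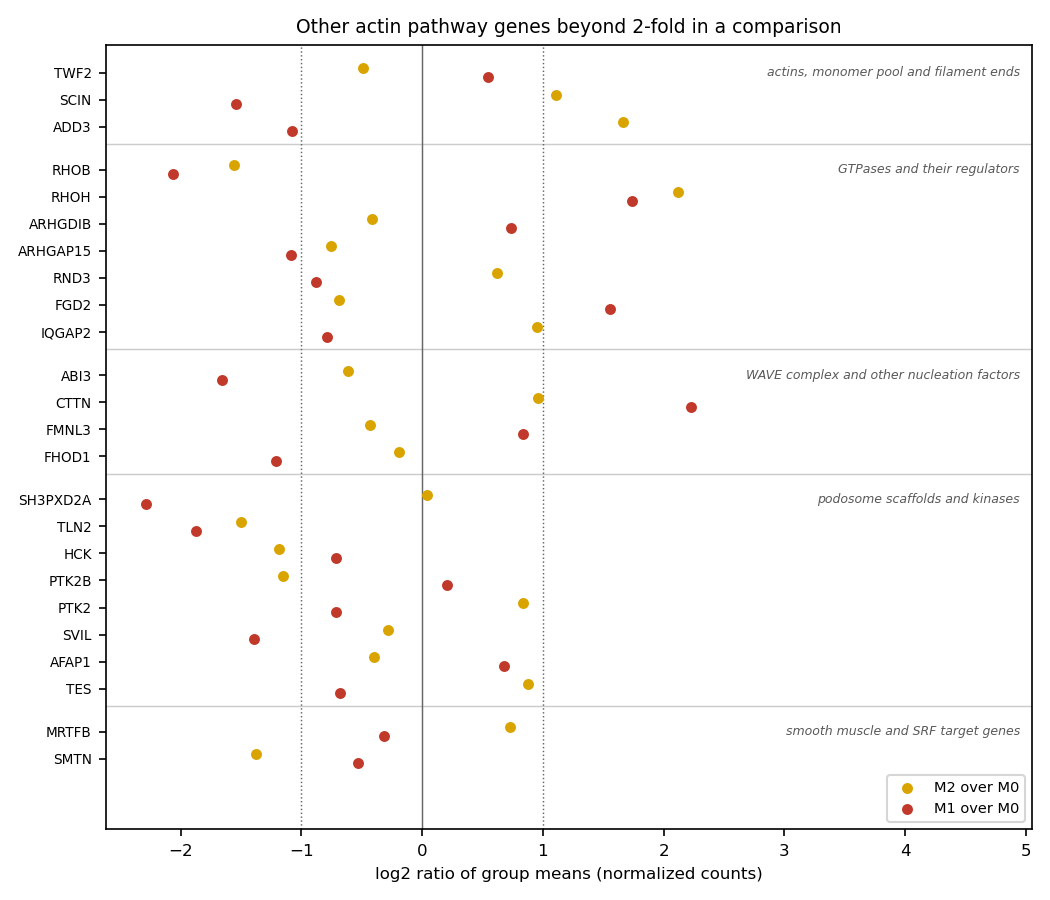
Log2 ratio of the group means (horizontal axis) in M2 over M0 (yellow) and M1 over M0 (red) for genes of the second list that differed 2-fold or more in a comparison (those reported here), grouped by role, with dotted lines at 2-fold. SH3PXD2A and CTTN lie far out in M1 on opposite sides, at -2.29 and 2.22, and RHOB and TLN2 lie left of the lower line in both states.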

How the data were processed

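RNA from 9 cultures was sequenced. In Partek Flow 7.0 the authors mapped the filtered reads with STAR 2.7.3a, on the dog assembly CanFam3.1, and took gene counts from HTSeq, which DESeq2 then normalized and compared. The strand setting is not given in the sources used here. The signal values used are the authors' deposited least squares means per group of these normalized counts, restricted to protein coding genes and not scaled to gene length. The table's further columns hold the authors' own comparisons (p-values, FDR, ratios and fold changes) and were not used, nor were 3 sheets of log2 ratios.

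Log2 ratios were computed from the means without a pseudocount (Python 3.11.15, numpy 2.4.6, pandas 2.3.3, matplotlib 3.10.9). A gene was called at a log2 ratio of at least 1 in size and a higher mean of at least 50. Groups followed the sample labels. The model on counts per sample that was planned was not run, since the values are group means. The computation was tested on simulated data with 200 changed genes. Alternatives were thresholds of 1.5-fold and of log2 1.5, no minimum or a minimum of 200, a pseudocount of 10, equal table sums, and centring on the median of all genes. The members and gene lists were chosen with earlier results of these data known. All members are given. Of the second list, the 3 genes with the largest log2 ratio in each comparison are named, and further ones were chosen after their values were seen. Not every gene chosen this way is reported here. Marker genes are named where they lead their list, and others were added after their values were seen. Sequences and coordinates are not shown here.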

Additional observations from a re-analysis of the deposited data

How the results depend on the processing

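The calls depended on the fold threshold and the minimum mean. None of the alternatives could turn the sign of a called log2 ratio, so the signs say nothing about stability. Thresholds, minimums and a pseudocount keep the sign, and the scalings shifted the ratios by far less than the threshold. Except for the minimum of 200, shares over all genes were not computed for the alternatives. Those counts therefore show only how the calls of members moved. At a threshold of 1.5-fold, 6 members were higher and 4 lower in M1 against M0, and 9 were higher and 6 lower in M2 against M1. At log2 1.5, 0 members were higher in M1 against M0, 0 were lower in M2 against M0 and 2 were higher in M2 against M1. Without a minimum mean, 2 members were lower in M1 against M0, since CALD1 entered. With a minimum of 200, 0 members were lower in M1 against M0 and 1 was lower in M2 against M0, since MYL9 left, where 6.86% and 3.00% of all genes were lower. With equal table sums, 2 members were higher in M1 against M0, since FSCN1 left, and the members' median there was -0.009, on the other side of 0 from the 0.06 of the deposited scaling. Equal sums shifted all ratios by -0.07, -0.03 and 0.04 in M1 against M0, M2 against M0 and M2 against M1. A pseudocount of 10 or centring on the median of all genes changed no call of a member. No paired analysis was possible because the values are group means with none per sample, and for the same reason leaving out each replicate, other size factors and the model on counts per sample were not run. Differences under 2-fold and those of genes with low means cannot be weighed without the spread between samples.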

Other observations

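The other filament systems were read after the values of the actin genes were seen, as values with no test. VIM, which encodes vimentin, the intermediate filament protein of macrophages, had a mean of 15539 in M2, 6288 in M1 and 24828 in M0, log2 ratios of -0.68 in M2 and -1.98 in M1 against M0. PLEC, which encodes plectin and links intermediate filaments to actin, had 44930 in M2, 27008 in M1 and 63558 in M0. SYNE1, which encodes nesprin-1 and ties the nucleus to actin, had 642 in M2, 390 in M1 and 1122 in M0, a log2 ratio of -1.53 in M1 against M0. These 3 genes shared an order of M0 over M2 over M1. SYNE2, a relative of SYNE1, did not, with 193 in M2, 398 in M1 and 408 in M0. It was lower in M2 than in M0 and in M1. LMNB1, which encodes lamin B1 of the nuclear lamina, had 633 in M2, 1111 in M1 and 1768 in M0, so M2 was the lowest there.

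Among 9 tubulins, the subunits of microtubules, TUBA4A had 220 in M2, 598 in M1 and 695 in M0, a log2 ratio of -1.66 in M2 against M0. Among 9 septins, GTPases that form filaments beside actin, SEPTIN11 had 160 in M2, 53.0 in M1 and 126 in M0, a log2 ratio of 1.59 in M2 against M1. Over 29 tubulins, septins, intermediate filament genes and plakins that reached the minimum, 0 were higher and 3 (10.3%) lower in M2 against M0, where 3.49% of all genes were lower. In M1 against M0, 0 were higher and 5 (17.2%) lower, where 8.77% of all genes were lower. In M2 against M1, 2 (6.90%) were higher and 2 (6.90%) lower, where 7.0% and 5.72% of all genes were. Their median log2 ratios were -0.09, -0.19 and 0.19. None of these genes could be set against the spread between samples.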
